A study of Mus musculus with 3 samples.

Results

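The genes described here are 40 that encode the working parts of the lysosome and the proton pump that acidifies it. They are given as a list of symbols, matched to gene identifiers through the transcript tables, of which 40 of 40 were found among 55536 annotated genes. By role they are 12 luminal hydrolases, 2 precursors of luminal cofactors (Psap and Grn), 7 membrane proteins and 2 transcription factors of the MiT family (Tfeb and Tfe3). The remaining members are 8 subunits of the V1 sector and 7 of the V0 sector of the V-ATPase, and 2 accessory proteins of the pump. The rule that lists them uses no measured value, but the members were chosen with earlier results of these data known.

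The samples were bone-marrow-derived macrophages of the inbred mouse strain C57BL/6J, which are primary cells grown from marrow. Lipid A, the part of lipopolysaccharide that the receptor TLR4 recognises, was given at 100 ng/ml for 12 h, washed out for 12 h and given again at 100 ng/ml for 20 min. RNA of the cytosolic fraction was depleted of ribosomal RNA and sequenced as total RNA in 3 libraries of 1 group, numbered as biological replicates 1, 2 and 3 under a single donor identifier. Untreated, once-treated and nuclear samples were not analysed here. What follows are therefore levels at a single time, and no response can be read from them. All errors are SD over these 3 libraries, and part of that spread may be technical.

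Lysosomes are acidic organelles in which hydrolases break down proteins, lipids and glycans delivered by phagocytosis, endocytosis and autophagy. Their limiting membrane is lined by heavily glycosylated proteins and kept acidic by the V-ATPase, a rotary pump with a V1 sector that hydrolyses ATP in the cytosol and a V0 sector that carries protons across the membrane. TFEB and TFE3 bind E-box sites in the promoters of many such genes and are held in the cytosol when mTORC1 is active on the lysosomal surface. Macrophages are rich in lysosomes because they digest engulfed particles and dying cells.

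Expected counts on annotated genes were 32055937, 43616634 and 47864978 in replicates 1, 2 and 3. Levels are given in TPM, a length-corrected share of all transcripts of a library. Protein-coding genes carried 32.7%, 27.4% and 27.8% of all TPM, and the short cytosolic RNA Rn7s2 alone carried 29.8%, 31.5% and 27.9%, so TPM levels of all coding genes are lowered by a like factor. Of 10 macrophage markers, 10 were at 1 TPM or more in every library, led by Lyz2 at 3120 ± 176 TPM and Mpeg1 at 757 ± 81.6 TPM. Summed TPM of 8 neutrophil markers ran from 8.47 to 17.2, that of 6 B cell markers from 1.46 to 2.72 and that of 7 stromal and endothelial markers from 3.64 to 10.8. Ly6g and Col3a1 had 0 counts in all 3 libraries. The nuclear RNA Malat1 was at 612, 156 and 637 TPM in replicates 1, 2 and 3, and its part in the values below was not tested. In RNA of a whole culture, fewer cells of a type and less RNA per cell cannot be told apart.

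All 40 genes were at 1 TPM or more in every library. The same was true of 41.3% of protein-coding genes and of 17.2% of all annotated genes. The members' summed share of expected counts was 3.01% in replicate 1, 3.25% in replicate 2 and 2.81% in replicate 3, and their share of the TPM of coding genes was 3.001%, 3.26% and 2.90%. Their median level was 71.9 ± 4.98 TPM (n = 3 libraries), and that of coding genes at 1 TPM or more in every library was 8.46 ± 0.534 TPM. The lowest and highest members lay 722-fold apart.

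**Figure D1:**
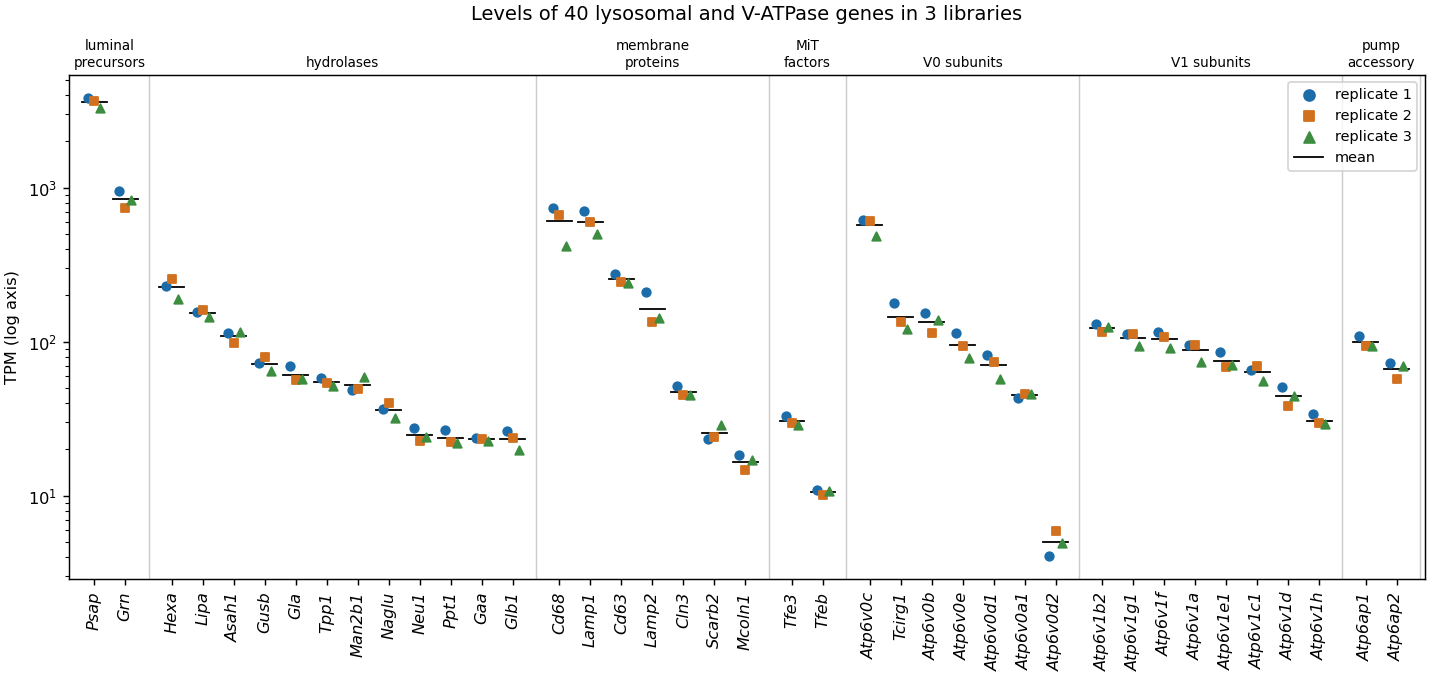
TPM of each of the 40 genes (log axis) in replicates 1, 2 and 3, grouped by role and ordered by mean within a role; black lines are means over 3 libraries. Psap stands at 3602 TPM above all other members, Atp6v0c at 573 TPM above the other pump subunits, and Atp6v0d2 at 4.99 TPM below all other members.

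Psap (ENSMUSG00000004207.14, mm10 chr10:60277627-60302597, plus strand) was the most abundant member. It encodes prosaposin, which is cut in the lysosome into the saposins that present sphingolipids to their hydrolases. It was at 3852, 3650 and 3304 TPM in replicates 1, 2 and 3, a mean of 3602 ± 277 TPM, which is rank 6 among coding genes. Psap alone carried 39.2%, 41.0% and 41.0% of the summed TPM of the 40 members.

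Grn, which encodes progranulin, a secreted and lysosomal protein cut into granulins, was at 946, 741 and 838 TPM (842 ± 102 TPM, rank 27). The ranges of Psap and Grn did not overlap, and Psap was 4.31 ± 0.533 times as high as Grn within a library.

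Nearly all Psap transcripts came from 2 first coding exons. Psap-202 held 59.0%, 57.1% and 62.2% of the gene's TPM, and Psap-203 held 38.7%, 40.3% and 34.5%. The sequences are shown because the pair differ only in how the coding sequence begins. Capitals mark the coding bases that each transcript has to itself (chr10:60277743-60277782 for Psap-202 and chr10:60284501-60284531 for Psap-203, plus strand), and lower case marks the first coding bases both share.
Psap-202: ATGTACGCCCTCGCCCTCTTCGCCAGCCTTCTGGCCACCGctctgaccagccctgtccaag
Psap-203: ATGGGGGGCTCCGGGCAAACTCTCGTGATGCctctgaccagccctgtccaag
The coding sequences are 1665 and 1656 bases long. Psap-202 was above Psap-203 in 3 of 3 libraries. In the second quantification of the same reads the shares were 66.8 ± 1.89% and 29.8 ± 2.53%, the same order with a wider gap. A further transcript, Psap-205, has 9 coding bases that Psap-202 lacks, CAGGATCAG at chr10:60297537-60297545, and held 1.65%, 1.72% and 2.44% of the gene's TPM.

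The 12 hydrolases had a median of 53.1 ± 1.54 TPM and a 9.65-fold range of means. Hexa was the highest at 231, 256 and 190 TPM in replicates 1, 2 and 3 (226 ± 33.4 TPM). It encodes the alpha subunit of beta-hexosaminidase, which removes the terminal sugar of ganglioside GM2. Next was Lipa, the acid lipase that frees cholesterol from its esters, at 157, 161 and 144 TPM (154 ± 8.80 TPM). Asah1, the acid ceramidase, followed at 113, 98.7 and 115 TPM (109 ± 8.99 TPM). Each of these stood above the next without overlap of its 3 libraries, as did Asah1 above Gusb.

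Below them came a close middle group. Gusb, the beta-glucuronidase, was at 72.4, 79.3 and 64.4 TPM (72.0 ± 7.43 TPM). Gla, the alpha-galactosidase missing in Fabry disease, was at 69.2, 56.7 and 57.6 TPM (61.2 ± 7.0 TPM). Tpp1, a tripeptidyl peptidase, was at 54.5 ± 3.46 TPM, and Man2b1, the lysosomal alpha-mannosidase, at 52.2 ± 5.73 TPM. Neighbours in this group overlapped over the 3 libraries. Within libraries, Gusb was above Gla and Gla above Tpp1 in 3 of 3, and Tpp1 above Man2b1 in 2 of 3.

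Naglu, which degrades heparan sulfate, was lower at 36.8, 39.95 and 31.9 TPM (36.2 ± 4.05 TPM) and overlapped neither neighbour. The last 4 hydrolases lay together. Neu1, a sialidase, was at 27.4, 22.7 and 24.1 TPM, and Ppt1, which removes palmitate from proteins, was at 26.9, 22.3 and 22.2 TPM. Gaa, the acid alpha-glucosidase that digests glycogen, was at 23.9, 23.6 and 22.8 TPM (SD 0.534 TPM). Glb1, the beta-galactosidase, was at 26.6, 23.6 and 20.0 TPM. All neighbouring pairs among these 4 overlapped, and over the 12 hydrolases 6 of 11 neighbouring pairs did.

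The 7 membrane proteins had a median of 162 ± 41.4 TPM, the level of Lamp2 in every library, and means spread over 36.5-fold. Cd68 (mm10 chr11:69664213-69666153, minus strand), a macrophage member of the LAMP family, was at 739, 667 and 419 TPM in replicates 1, 2 and 3 (608 ± 168 TPM). Lamp1, a main glycoprotein of the limiting membrane, was at 705, 599 and 503 TPM (602 ± 101 TPM). The 2 genes overlapped, and Cd68 was the higher in 2 of 3 libraries. Cd63, a tetraspanin of late endosomes, followed at 277, 245 and 242 TPM (255 ± 19.5 TPM).

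Lamp2 was at 210, 135 and 142 TPM (162 ± 41.4 TPM), with replicate 1 above the others. Lamp1 was 3.78 ± 0.577 times as high as Lamp2 within a library. The lower 3 were Cln3, the protein lost in juvenile Batten disease, at 51.5, 44.9 and 45.1 TPM (47.2 ± 3.79 TPM), and Scarb2, the sorting receptor of glucocerebrosidase, at 23.3, 24.0 and 29.0 TPM (25.4 ± 3.14 TPM). Mcoln1, the calcium channel TRPML1, was the lowest membrane member at 18.3, 14.7 and 17.1 TPM (16.7 ± 1.87 TPM). Of 6 neighbouring pairs of membrane genes only Cd68 and Lamp1 overlapped.

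Lamp2 (ENSMUSG00000016534.15, mm10 chrX:38401357-38456454, minus strand) is known for 3 splice forms that share their lumenal part and differ in the last exon, which encodes the membrane span and the short cytosolic tail. The form usually called LAMP-2A serves as receptor in chaperone-mediated autophagy. After 1108 shared coding bases the 3 annotated coding transcripts end in the following stretches, shown because the reads divide between them. The stop codon is in capitals.
Lamp2-201: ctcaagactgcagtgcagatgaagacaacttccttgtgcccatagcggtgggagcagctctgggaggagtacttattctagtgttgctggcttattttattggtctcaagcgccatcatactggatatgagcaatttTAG
Lamp2-202: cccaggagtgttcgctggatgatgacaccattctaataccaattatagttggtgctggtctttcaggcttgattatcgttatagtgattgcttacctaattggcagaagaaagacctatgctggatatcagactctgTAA
Lamp2-203: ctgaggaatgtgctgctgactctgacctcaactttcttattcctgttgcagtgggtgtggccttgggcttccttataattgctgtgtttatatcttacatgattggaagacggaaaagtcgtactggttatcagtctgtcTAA
They lie on the minus strand of mm10 at chrX:38405432-38405571, chrX:38421712-38421851 and chrX:38402139-38402281.

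Lamp2-201 held 50.6%, 53.6% and 42.2% of the gene's TPM in replicates 1, 2 and 3, and Lamp2-202 held 48.2%, 45.9% and 56.9%. Their means, 48.8 ± 5.90% and 50.3 ± 5.79%, differed by less than the spread between libraries, and the order turned over in replicate 3. Lamp2-203 held 0.435 ± 0.0561%. The second quantification gave 53.0 ± 6.33% for Lamp2-201 and 46.1 ± 6.15% for Lamp2-202, again with the order reversed in replicate 3 (46.1% and 52.9%).

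Across the V-ATPase, the 8 V1 members had a median of 81.6 ± 9.02 TPM with a 4.0-fold range of means. The 7 V0 members had a median of 95.2 ± 17.4 TPM, the level of Atp6v0e in every library, with a 115-fold range. That width came from the ends of the V0 sector, Atp6v0c at the top and Atp6v0d2 at the bottom, while the other 5 V0 genes lay between 45.0 and 145 TPM. Of 16 neighbouring pairs among the 17 pump genes with accessory proteins, 11 overlapped over the 3 libraries.

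In the V1 sector the catalytic hexamer is made of alternating A and B subunits. Atp6v1a, the A subunit, was at 94.9, 94.9 and 74.1 TPM (87.9 ± 12.0 TPM). Atp6v1b2, the B subunit, was at 130, 116 and 124 TPM (123 ± 7.15 TPM), 1.42 ± 0.233 times Atp6v1a. The B gene was the higher in 3 of 3 libraries, although the pump holds equal numbers of both proteins.

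The peripheral stalks join the sectors and consist of E and G subunits. Atp6v1g1 was at 113, 112 and 94.3 TPM (106 ± 10.4 TPM), and Atp6v1e1 at 85.5, 68.8 and 70.4 TPM (74.9 ± 9.25 TPM). The central rotor subunit F gene, Atp6v1f, was at 116, 108 and 90.9 TPM (105 ± 12.6 TPM), and the rotor subunit D gene, Atp6v1d, at 50.8, 38.4 and 44.2 TPM (44.5 ± 6.22 TPM). Atp6v1c1, the C subunit that detaches when the sectors come apart, was at 65.9, 70.0 and 55.3 TPM (63.8 ± 7.57 TPM). Atp6v1h, the regulatory H subunit, was the lowest V1 gene at 33.8, 29.6 and 29.1 TPM (30.8 ± 2.59 TPM), and Atp6v1b2 was 4.01 ± 0.223 times as high.

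Atp6v0c (ENSMUSG00000024121.13, mm10 chr17:24163866-24169702, minus strand) encodes the proteolipid that forms most of the rotating ring of V0. It was at 621, 612 and 487 TPM in replicates 1, 2 and 3 (573 ± 74.9 TPM), rank 53 among coding genes and the highest pump member by 3.96-fold. It was 6.95 ± 0.504 times the median of the other V0 members and 7.02 ± 0.358 times the median of the V1 members. Several copies of this proteolipid enter each pump, and 1 copy of most other V0 subunits. Processed copies of the gene could take reads from it or lend them. Atp6v0c-ps2 had 81.9, 62.8 and 57.1 expected counts against 29432 to 46841 for Atp6v0c, and Atp6v0c-ps1 had 0. Only copies named after the gene were looked for, so copies under other names were not examined.

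The other ring subunit gene, Atp6v0b, was at 153, 113 and 139 TPM (135 ± 20.1 TPM). Atp6v0e, a small membrane subunit, was at 113, 93.8 and 78.5 TPM (95.2 ± 17.4 TPM). Of the accessory proteins, Atp6ap1 was at 110, 94.0 and 93.7 TPM (99.1 ± 9.07 TPM) and Atp6ap2, the prorenin receptor, at 72.4, 57.2 and 69.6 TPM (66.4 ± 8.09 TPM). Both take part in pump assembly.

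For 7 subunits with several genes, the share of each gene in the summed TPM of its subunit was taken within a library. Subunit a anchors the stalk in the membrane and its genes direct the pump to different compartments. Tcirg1, the a3 gene of lysosomes and of osteoclasts, held 76.5%, 71.7% and 68.8% in replicates 1, 2 and 3. Atp6v0a1 held 18.6%, 24.4% and 26.0%, and Atp6v0a2 held 4.86%, 3.93% and 5.16%. Atp6v0a4, known from kidney, had 0 counts in all libraries, which allows up to 0.0507 TPM (3 counts per library, counting error only).

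In levels, Tcirg1 was at 179, 134 and 122 TPM (145 ± 29.9 TPM) and Atp6v0a1 at 43.5, 45.6 and 45.9 TPM (45.0 ± 1.35 TPM). Tcirg1 was the higher in every library, by 4.11, 2.94 and 2.65 times. Replicate 1 had the highest Tcirg1 and the lowest Atp6v0a1. Atp6v0a2 was at 9.28 ± 2.00 TPM.

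**Figure D2:**
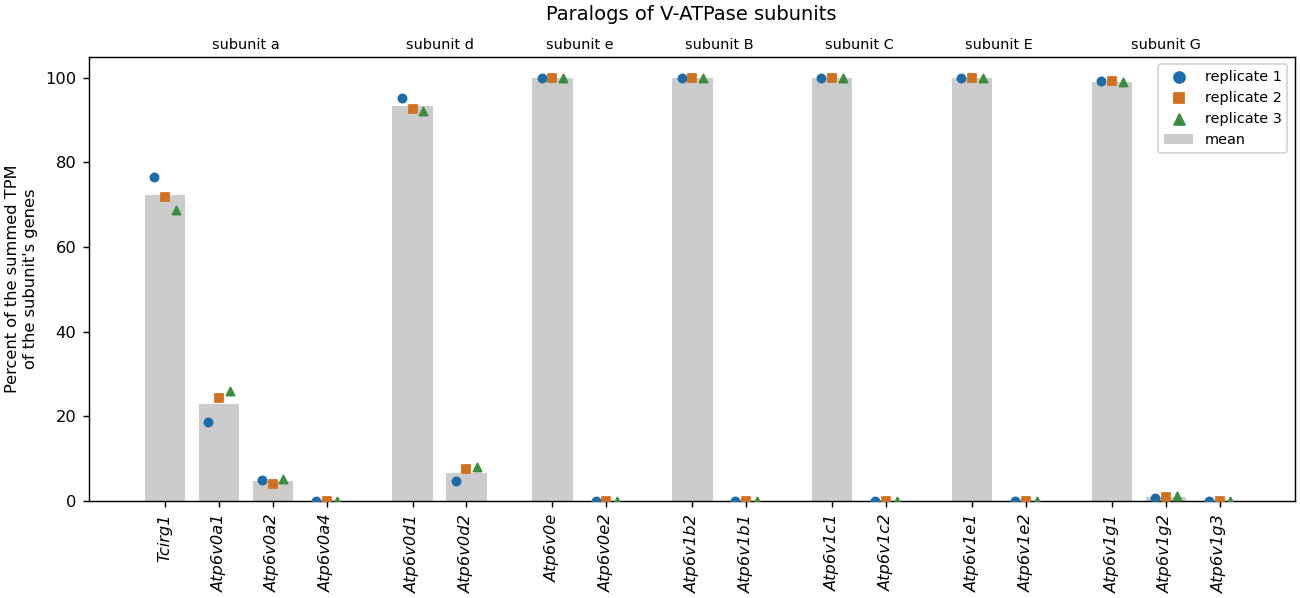
Share of each gene in the summed TPM of its V-ATPase subunit, in percent, for 7 subunits with more than 1 gene; points are replicates 1, 2 and 3 and bars their means. Subunits B, C, E, G and e are each nearly all from 1 gene, while subunit a divides between Tcirg1 (72.4%), Atp6v0a1 (23.0%) and Atp6v0a2 (4.65%), and subunit d between Atp6v0d1 (93.3%) and Atp6v0d2 (6.72%).

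Subunit d couples the rotor to the ring. Atp6v0d1, found in all cells, was at 81.6, 73.6 and 57.5 TPM (70.9 ± 12.3 TPM). Atp6v0d2 (ENSMUSG00000028238.6, mm10 chr4:19876841-19922605, minus strand), known for its part in the fusion of osteoclast precursors, was at 4.07, 5.91 and 4.98 TPM (4.99 ± 0.920 TPM), from 470, 1097 and 959 expected counts. Atp6v0d1 was the higher by 20.1, 12.4 and 11.6 times, and Atp6v0d2 held 4.75%, 7.44% and 7.97% of the pair. It was the lowest of the 40 members in every library, at rank 6108 among coding genes.

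Because Tcirg1 and Atp6v0d2 are well known from osteoclasts, which can arise from the same marrow cells, osteoclast markers were read beside them. Of 8 such markers, 2 were at 1 TPM or more in every library, Nfatc1 at 11.7 ± 1.08 TPM and Acp5 at 11.8 ± 2.54 TPM. Ctsk was at 0.95, 0.57 and 0.54 TPM, Oscar had 0 counts, and Calcr, Dcstamp and Ocstamp had at most 1 count in any library. The summed TPM of the 8 was 23.3, 22.2 and 27.5.

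In the other 5 subunits 1 gene held nearly all. Atp6v1b2 held 99.99% of subunit B, Atp6v1c1 99.99% of C, Atp6v1e1 100% of E, Atp6v0e 99.97% of e and Atp6v1g1 99.1 ± 0.147% of G. Atp6v1g2, known from neurons, made up the rest of G with 45, 80.1 and 89.1 expected counts. Atp6v1b1, of acid-secreting epithelia, had 1, 1 and 0 counts, Atp6v1c2 had 0, 2 and 0, and Atp6v0e2 had 2, 3 and 3. Atp6v1e2, known from testis, and Atp6v1g3, known from kidney, had 0 counts in all libraries, which allows up to 0.0643 and 0.0362 TPM.

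The medians of the classes were set against each other within each library, on the scale log2(TPM + 1). Hydrolases lay below membrane proteins by 1.96, 1.37 and 1.36 in replicates 1, 2 and 3, a difference of -1.57 ± 0.34. They lay below V0 members (-0.82 ± 0.28) and below V1 members (-0.60 ± 0.18). Membrane proteins lay above V1 members by 0.96 ± 0.25, and V0 above V1 by 0.33, 0.20 and 0.12 (0.22 ± 0.10). Each of the 5 differences had its sign in 3 of 3 libraries. With 7 genes in each of these classes, the membrane median was the level of Lamp2 and the V0 median that of Atp6v0e in every library. The spread of those medians between libraries is therefore that of a single gene. An exact sign-flip test over 3 libraries cannot give a p below 0.25, so none was made.

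Other genes of the pathway gave a measure of how far the 40 stand for their classes. All 19 other hydrolases on a further list were at 1 TPM or more in every library, and their median was 16.3 ± 1.21 TPM. Ctsa, the protective protein of Neu1 and Glb1, was the highest at 291 ± 15.6 TPM, and Arsb was the lowest at 3.77 ± 0.552 TPM. These levels are above and below the range of the 12 hydrolases, 23.4 to 226 TPM.

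Of 18 other membrane proteins, 16 were at 1 TPM or more in every library, and their median was 19.1 ± 2.59 TPM. Gpnmb was at 1597, 1547 and 1114 TPM (1419 ± 266 TPM), above every listed membrane member, and Laptm5 was at 320.0 ± 6.86 TPM. Lamp3, the LAMP of dendritic cells, had 0, 1 and 1 counts.

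Tfe3 was at 33.0, 29.8 and 28.7 TPM (30.5 ± 2.27 TPM), and Tfeb at 10.8, 10.1 and 10.7 TPM (10.5 ± 0.391 TPM). Tfe3 was 2.89 ± 0.190 times as high as Tfeb within a library. The other 2 MiT genes were Mitf at 19.6, 12.7 and 14.5 TPM (15.6 ± 3.55 TPM) and Tfec at 9.26, 8.09 and 6.34 TPM (7.90 ± 1.47 TPM). All 4 were thus measured in every library, in the same order in each.

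Hydrolases reach the lysosome through receptors for mannose 6-phosphate. Of 6 sorting genes, not all of that route, 5 were at 1 TPM or more in every library. They were led by the receptor M6pr at 105 ± 12.9 TPM and the uncovering enzyme Nagpa at 18.0 ± 0.983 TPM. Sort1 was the lowest at 0.66, 1.53 and 1.38 TPM. The Ragulator and mTORC1 genes, which sense nutrients on the lysosomal surface, were at 1 TPM or more in 12 of 12 cases, with a median of 18.3 ± 0.852 TPM. Lamtor1 (90.5 ± 5.35 TPM) and Rragc (58.3 ± 8.73 TPM) were the highest and Mtor (4.73 ± 0.845 TPM) the lowest.

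Promoters of the members were searched for an E-box that TFEB and TFE3 bind. Windows ran from 250 bases before to 50 bases after the RefSeq start (GRCm38.p6). Such sites are known from promoters of many lysosomal genes, so the shares below are a description and were not tested. The letters searched were CACGTG, the extended TCACGTGA and a 10-letter form with G before and C after the latter. Each longer form holds the shorter, and each reads the same on both strands. A window was given for 34 of 40 members. Asah1, Atp6v1b2, Atp6v1c1, Atp6v1g1, Atp6v1h and Atp6v0d2 had none.

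CACGTG was in the window of 11 of 34 members (32.4%), against 12.7% of coding genes at 1 TPM or more in every library and 8.09% of all genes with a window. TCACGTGA was in 6 of 34 (17.6%), against 2.60% and 1.13%. These 6 were Atp6v0d1, Atp6v0e, Atp6v1a, Cln3, Gla and Mcoln1. The match of Atp6v0d1 began at base -4 from the start and that of Atp6v0e at base 3. Annotated exons covered 74 of 74 bases of the stretch around the Cln3 matches and 43 of 72 at Mcoln1. At Gla exons of another gene covered 74 of 79 bases. The 10-letter form was in 1 of 34, Cln3 (2.94%), against 0.947% and 0.37%. By role, CACGTG was in 4 of 11 hydrolases, 3 of 7 membrane proteins, 3 of 6 V0 and 1 of 4 V1 members with a window, and in neither precursor, MiT factor nor accessory gene.

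The following stretches lie before the RefSeq start and outside annotated exons. That of Atp6v1a lies inside the annotated span of its gene, chr16:44085402-44139705. All are shown for the spacing of the matches, which are in capitals, with TCACGTGA in full where it occurs.
Lamp1: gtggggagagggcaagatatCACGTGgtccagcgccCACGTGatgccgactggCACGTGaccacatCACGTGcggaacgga
Atp6v1a: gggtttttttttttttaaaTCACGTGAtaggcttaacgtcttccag
Glb1: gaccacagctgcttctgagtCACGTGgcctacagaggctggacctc
Gaa: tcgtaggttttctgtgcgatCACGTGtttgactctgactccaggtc
Their positions are chr8:13159080-13159160 (plus strand), chr16:44139365-44139410 (minus strand), chr9:114401010-114401055 (plus strand) and chr11:119267803-119267848 (plus strand). Lamp1 held 4 matches within 81 bases, while the other 3 stretches hold 1 each. Members with TCACGTGA had a median of mean levels of 66.0 TPM, and the 28 without it 73.5 TPM. A match is only a run of letters, and binding was not measured.

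Differences between the 3 libraries were tested against counting noise for all genes with edgeR, since the single group leaves no other contrast. At an adjusted p under 0.05, 38 of 40 members differed between libraries, and 71.1% of the 12372 genes tested did. Among genes at a mean of 10 TPM or more the share was 90.2%. The members that did not pass were Mcoln1 (edgeR adjusted p = 0.121) and Tfeb (edgeR adjusted p = 0.191). With a 1.5-fold gap between the highest and lowest library also required, 2 of 40 members were called, against 21.6% of genes tested. At a mean of 10 TPM or more, 1 of 39 members and 14.0% of genes were called.

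The 2 members with such a gap were Cd68 and Atp6v0d2, on TPM rescaled between libraries by TMM factors. Cd68 was at 688, 707 and 424 scaled TPM in replicates 1, 2 and 3, a 1.67-fold gap with replicate 3 low. Atp6v0d2 was at 3.79, 6.27 and 5.04 scaled TPM, a 1.65-fold gap with replicate 1 low. With any 1 library left out a single member passed, Cd68 in 2 cases and Atp6v0d2 in the other.

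The other 38 members lay within 1.5-fold. The median gap over members was 1.18-fold, against 1.29-fold over all genes tested and 1.23-fold over genes at 10 TPM or more. It was under 1.25-fold for 25 of 40 members (62.5%), against 44.0% of all genes tested and 55.6% of genes at 10 TPM or more. Atp6v1b2 had the smallest gap, 1.04-fold, at 121, 123 and 126 scaled TPM.

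**Figure D3:**
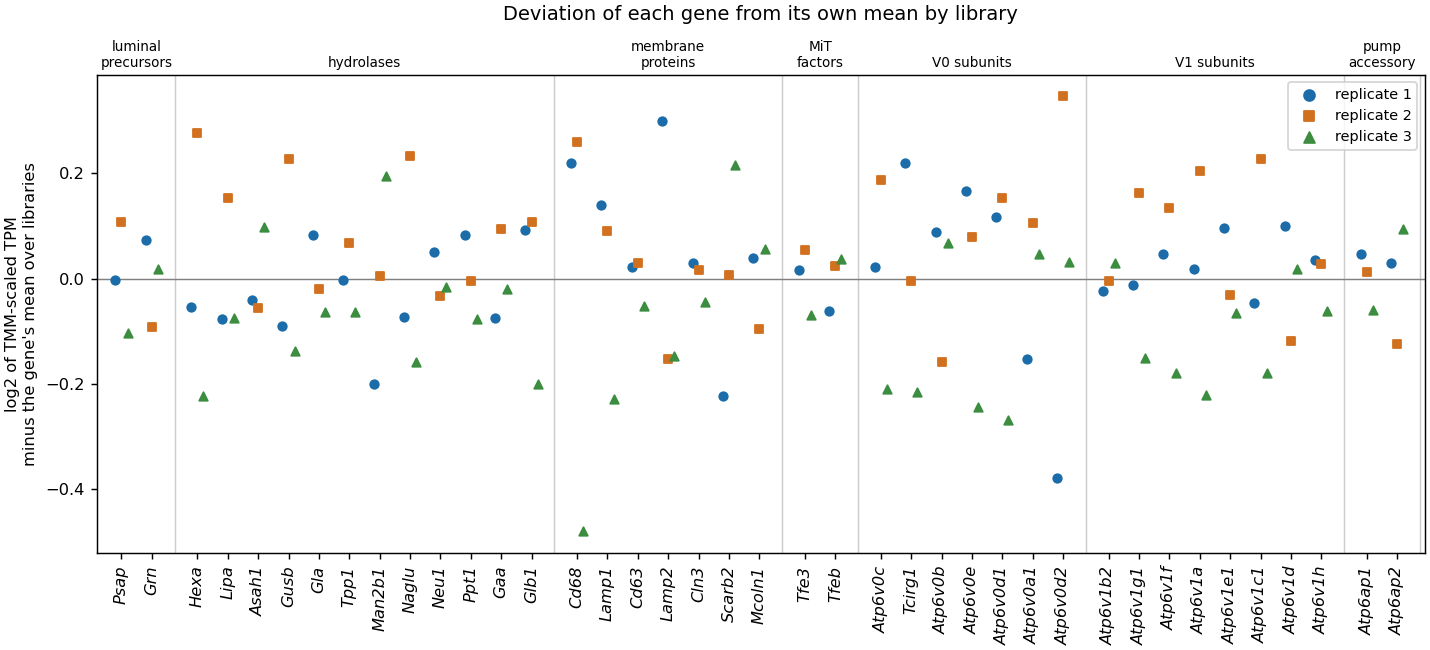
Deviation of each gene from its own mean over the 3 libraries, as log2 of TMM-scaled TPM, for the 40 members grouped by role; points are replicates 1, 2 and 3. Replicate 3 is the lowest point for 24 of 40 genes (13 when TPM are rescaled to coding genes only), with Cd68 at -0.48, and replicate 1 is the lowest for Atp6v0d2 at -0.38.

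Replicate 3 was the lowest library for 24 of 40 members under TMM scaling, against 31.7% of all genes tested, but for 13 of 40 (22.2% of genes tested) with TPM rescaled to coding genes only. By class, under TMM scaling, this held for 7 of 12 hydrolases, 4 of 7 membrane proteins, 4 of 7 V0 and 6 of 8 V1 members. The median deviation of V0 members from their own mean was 0.09, 0.10 and -0.21 in replicates 1, 2 and 3 (log2), and that of V1 members 0.03, 0.08 and -0.11. Of the 15 V0 and V1 members, replicate 3 was the lowest for 10 under TMM scaling and for 8 with coding genes only. Under TMM scaling replicate 1 was the lowest for 8 members, against 36.7% of genes tested, and with coding genes only for 18 (49.2%).

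Some members went the other way in that library. Man2b1 was at 45.3, 52.2 and 59.5 scaled TPM in replicates 1, 2 and 3, and Scarb2 was at 21.7, 25.4 and 29.4, both highest in replicate 3. Asah1, Atp6ap2, Atp6v1b2, Mcoln1 and Tfeb were also highest there, 7 of 40 members against 33.2% of all genes tested. Hexa, Gusb and Naglu were highest in replicate 2, which was the highest library for 19 members (34.2% of all genes tested), and replicate 1 was for 14 (32.6%). These counts are under TMM scaling. With coding genes only, replicates 1, 2 and 3 were the highest for 6, 23 and 11 members, and with TPM as deposited for 30, 6 and 4. Under TMM scaling, 8 of the 12 Ragulator and mTORC1 genes were lowest in replicate 3, and of the 6 sorting genes 0 were. The same held for 6 of 19 other hydrolases and 5 of 16 other membrane proteins tested, against 31.7% of all genes tested.

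Each gene's TPM was also divided over its annotated transcripts. For 26 of 40 members 1 transcript held 90% or more. The median share outside coding transcripts was 0.891%, and it was 2.47% over coding genes at 1 TPM or more. At least 10% lay outside coding transcripts in 5 of 40 members, against 27.7% of those coding genes. The 5 were Atp6v1d, Cln3, Gusb, Tcirg1 and Atp6v0a1. This list depended on the quantification. In the second quantification Gusb fell to 3.87%, and the means of the other 4 of the list stayed above 10%. For Tcirg1 that mean rested on replicate 1, with 26.1%, 2.73% and 8.69% in replicates 1, 2 and 3. Asah1 (35.1%), Tpp1 (23.1%), Man2b1 (19.2%) and Atp6v1c1 (16.0%) passed 10% there. The matching share over coding genes was not taken for the second quantification.

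**Figure D4:**
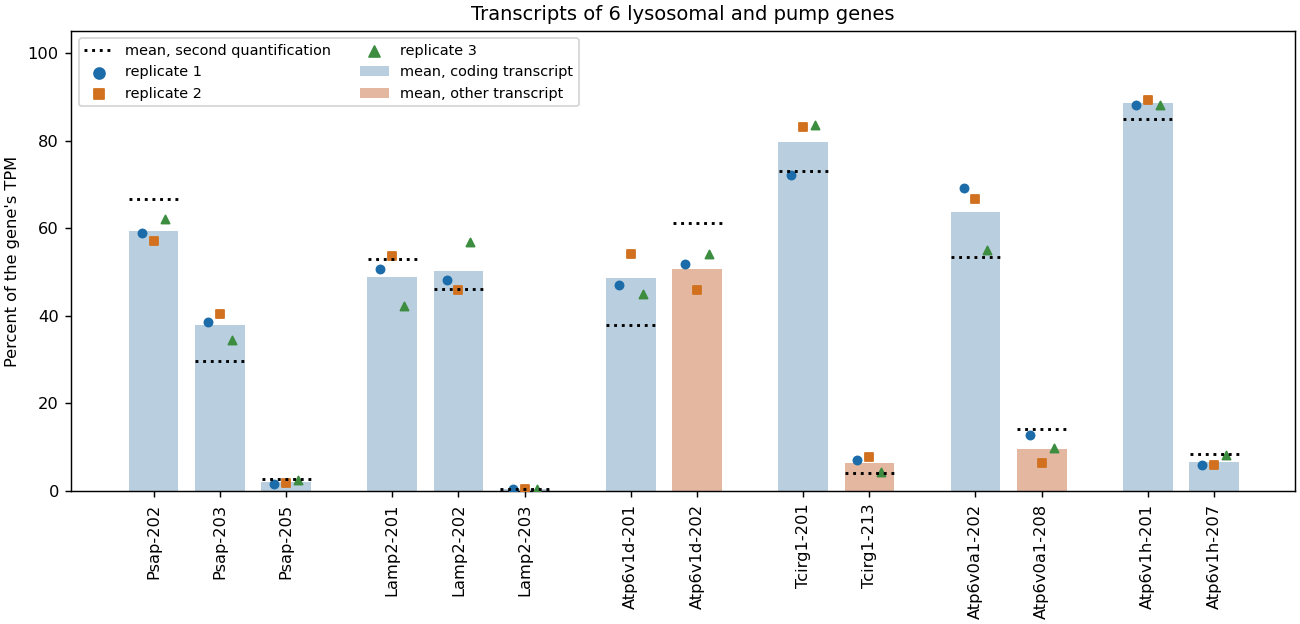
Share of transcripts in the TPM of Psap, Lamp2, Atp6v1d, Tcirg1, Atp6v0a1 and Atp6v1h, in percent; points are replicates 1, 2 and 3, bars are their means, coloured by whether the transcript is annotated as coding, and dotted lines are means of the second quantification. Lamp2-201 and Lamp2-202 are near equal at 48.8% and 50.3%, and the non-coding Atp6v1d-202 holds 50.7%.

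Atp6v1d (mm10 chr12:78840725-78861638, minus strand) had the largest such share. Its transcript Atp6v1d-202, annotated as a retained intron, held 51.9%, 46.0% and 54.2% of the gene's TPM in replicates 1, 2 and 3. The coding Atp6v1d-201 held 46.9%, 54.0% and 45.0%. The former is 775 bases long, of which 688 lie in exons of the coding transcript (3667 bases) and 87 outside them, so few bases belong to the shorter transcript alone. Without replicate 3 the order of the means turned, to 48.9% for Atp6v1d-202 and 50.5% for Atp6v1d-201. In the second quantification Atp6v1d-202 held 61.1 ± 0.448%.

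Gusb-206, annotated as a target of nonsense-mediated decay, held 12.8%, 14.7% and 23.4% of Gusb TPM but 3.19 ± 4.09% in the second quantification. Retained-intron transcripts of Tcirg1 held 19.6%, 8.65% and 8.75%, with replicate 1 apart. In the second quantification 26.1%, 2.73% and 8.69% of Tcirg1 TPM lay outside coding transcripts. Atp6v0a1 had 13.2 ± 3.94% outside coding transcripts, and its main coding transcript Atp6v0a1-202 held 63.7 ± 7.55%.

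Cln3 had 31.6 ± 1.88% outside coding transcripts over 19 annotated transcripts. Its highest, Cln3-204, held 21.5 ± 6.11%, and 3.30 ± 1.41% in the second quantification. The exons of Cln3 share 442 bases with Apobr on the opposite strand, which was at 17.3, 20.1 and 20.0 TPM. Without knowledge of the strand setting, reads of the 2 genes there cannot be told apart. The same limit applies to Ppt1, which shares 129 bases (3.51% of its exon bases) with Cap1 on the opposite strand. Cap1 was at 143, 135 and 132 TPM, and its part in the Ppt1 level was not tested. Glb1 shares 165 bases (5.5% of its exon bases) with Tmppe on the same strand, where no strand setting would separate reads. Tmppe was at 3.95, 3.89 and 4.43 TPM, and its part in the Glb1 level was not tested. In the first quantification Tpp1, next after the 5 members above 10%, had 8.32 ± 1.48% outside coding transcripts.

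Gene levels from the second quantification were compared with the first after dividing by the median ratio of coding genes. None of the 40 members was 2-fold apart one way in all 3 libraries, and 0.302% of 7955 coding genes were. The ratios of members ran from 0.886 (Grn) to 1.35 (Cln3), with a median of 0.978. In every library 39 of 40 lay within 1.25-fold, and Cln3 at 1.43, 1.37 and 1.24 was the exception.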

How the data were processed

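The members and lists were chosen with earlier results of these data known. Each library has a gene table and 2 transcript tables, made by the authors against build mm10 and the annotation GENCODE M21, as text deposited beside the tables states. The gene tables hold expected counts and TPM as deposited, the first transcript tables TPM and the percent of each gene per transcript as deposited, and the second ones (the second quantification) estimated counts and TPM as deposited. Programs and strand setting were not given in the sources used here.

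Means and SD are over 3 libraries. Expected counts were rounded and tested in edgeR 4.0.16 (R 4.3.3) with TMM factors, filterByExpr, dispersion 0 and a likelihood ratio test of 3 library levels against 1, adjusted by Benjamini-Hochberg over all genes tested. Since 1 sample per level leaves no residual degrees of freedom, the p-values measure departure from counting noise. The steps were tested on simulated data. Differences of class medians used log2(TPM + 1), a pseudocount of 1. Other steps used Python 3.11.15, numpy 2.4.6 and pandas 2.3.3. Alternatives were other normalizations (DESeq2 1.42.0 size factors), filters, pseudocounts, summaries, the second quantification and leaving out each replicate.

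The text names all 40 members, the 2 highest and the lowest of each other list, all V-ATPase paralogs and MiT genes, and transcripts of at least 10% in 11 genes set by rule. Some genes this rule takes are not reported here. Ctsk, Calcr, Dcstamp, Ocstamp, Malat1, Rn7s2, Apobr, Cap1 and Tmppe were added after their values were seen. So were 2 minor transcripts of Psap and Lamp2 and the Atp6v0c copies. Coordinates are 1-based. Transcript sequences are from GENCODE M21 and promoters from RefSeq.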

Additional observations from a re-analysis of the deposited data

How the results depend on the processing

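The 5 differences of class medians kept their sign under every alternative run, all of which used the listed members. Outside the list the gap between hydrolases and membrane proteins was small. Medians in replicates 1, 2 and 3 were 17.3, 16.5 and 15.0 TPM for the other hydrolases. They were 17.7, 17.4 and 22.1 TPM for the other membrane proteins. The order of 2 transcript pairs turned. Lamp2-201 and Lamp2-202 held 53.0% and 46.1% in the second quantification and 52.1% and 47.1% without replicate 3, and Atp6v1d-202 and Atp6v1d-201 held 48.9% and 50.5% without replicate 3. In the second quantification, whose TPM stood to the first at a median ratio of 0.439 to 0.549 over coding genes, the class medians were 28.0 (hydrolases), 79.9 (membrane), 47.4 (V0) and 43.5 TPM (V1), and with TPM over coding genes only 182.6, 548.2, 323.9 and 279.0 TPM. As geometric means, the membrane level was 116 and the V0 level 77.1 TPM. With means in place of medians, hydrolases minus membrane was -1.11 and membrane minus V1 0.68 (log2). Members called with a 1.5-fold gap were 4 in the second quantification and 1 with any replicate left out. As shares of expected counts, not corrected for length, Tcirg1 held 62.8%, Atp6v0a1 28.3%, Atp6v0a2 8.94% and Atp6v0d2 10.6%. The second quantification gave 61.1% for Atp6v1d-202, 66.8% for Psap-202 and 29.8% for Psap-203. For shares outside coding transcripts, it put Gusb below 10% and Asah1, Tpp1, Man2b1 and Atp6v1c1 above 10%. With a replicate left out, 31 to 34 members and 6398 to 6617 genes were called, from fewer counts. The single means of 40 members moved by at most 1.17-fold (Lamp2 without replicate 1). Rescaled levels from the second quantification moved by more than 1 SD for 10 of 40 members. Replicate 3 was the lowest library for 23 members with TPM as deposited, 25 with median ratios and 13 with TPM over coding genes only, scalings chosen after seeing the data; the cause was not tested. No paired analysis was possible because the series holds 1 group. Counts of 470 to 1097 for Atp6v0d2 and 918 to 1472 for Tfeb are the shallowest among the members, so small differences between libraries would be hardest to detect there.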
